A study of Sus scrofa with 31 samples.

Results

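The comparison described here asks how pig (Sus scrofa) myocardium that had been stored for 48 h differs from myocardium stored for 3 h, once each heart had been warmed and perfused again. All libraries compared came from hearts that were kept under the condition labelled HOPE and then given 2 h of NMP, normothermic machine perfusion. The labels do not spell out HOPE, which in heart preservation usually stands for hypothermic oxygenated perfusion. The members are the 2 libraries stored for 48 h and the 2 libraries stored for 3 h, 4 of 31 libraries in the series. They were chosen by their sample titles, and the genes described are those with a mean of at least 10 TPM over the 7 libraries that went through NMP, 4388 of the 25149 genes listed. TPM is a transcript level already divided by gene length and by the library's total. The other libraries with NMP were 2 after 24 h of HOPE and 1 after 24 h of SCS, usually read as static cold storage. A further 24 libraries, from 6 pigs, had no NMP. The labels do not say whether the 2 libraries of a storage time came from separate hearts, so the p-values measure the spread between these samples.

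A heart that is stored cold and then warmed goes from low metabolism to full oxygen demand within minutes. Reperfusion of heart muscle is known for a burst of stress signalling: immediate early transcription factors, NF-kappaB targets such as chemokines and adhesion molecules, and the integrated stress response. Interferon-induced genes answer to type I interferon and to sensors of nucleic acid in the cytosol. Globin messages belong to immature red cells and are used as markers of the erythroid lineage.

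The samples are labelled as cardiomyocytes from myocardium, and the libraries held messages of several cell types. The cardiomyocyte genes TNNT2, TNNI3 and MYL3, which encode parts of the contractile apparatus, stood at 7929 to 20403 TPM in the 6 HOPE libraries. Endothelial markers summed to 412 to 867 TPM, and fibroblast markers summed to 570 to 1222 TPM. In bulk tissue, fewer cells of a type and less RNA per cell cannot be told apart. The rank correlation (Spearman, across genes) between the libraries of a storage time was 0.908 at 3 h, 0.923 at 24 h and 0.862 at 48 h. The 2 libraries at 3 h were unequal: 488 of the tested genes were over 2-fold higher in the first than in the second, and 29 the other way. At 48 h these counts were 276 and 178. The SCS library stood apart, with rank correlations of 0.495 to 0.699 to the HOPE libraries, and its values are given only beside single genes. The 13 mitochondrially encoded genes held 40.6% and 51.1% of the TPM at 3 h and 47.4% and 40.0% at 48 h.

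No gene passed an adjusted p of 0.05 in the comparison of 48 h with 3 h, by limma with Benjamini-Hochberg adjustment (0%). The smallest adjusted p was 0.0627. Without the second 48 h library 6 genes were called, without either 24 h library 4, and without any 1 of the other HOPE libraries 0. At an unadjusted p under 0.05 there were 354 genes (8.07%), of which 285 (6.49%) were higher after 48 h and 69 (1.57%) were lower. Both 48 h libraries lay above both 3 h libraries for 851 genes (19.4%) and below both for 577 genes (13.1%). The median log2 fold change over all tested genes was 0.02, and 52.4% of the genes had a positive value. Past a 2-fold difference the sides were unequal, with 244 genes higher and 46 lower, as the plot of fold change against level shows. The 12 named genes on the higher side were HBB, IFIT1, CTGF, SESN2, HBM, IFIT2, GPR183, RNF19B, RSAD2, CXCL2, PMAIP1 and OAS2. The median standard error of a log2 fold change was 0.33, and an exact permutation test of 2 libraries against 2 cannot give a two-sided p under 0.333. The filter on the mean level lets a gene that is low at 3 h pass through the libraries where it is high, so counts and medians over the tested members of a list describe those members only. Every gene value below is therefore a description of these 4 libraries unless a call is named.

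**Figure D1:**
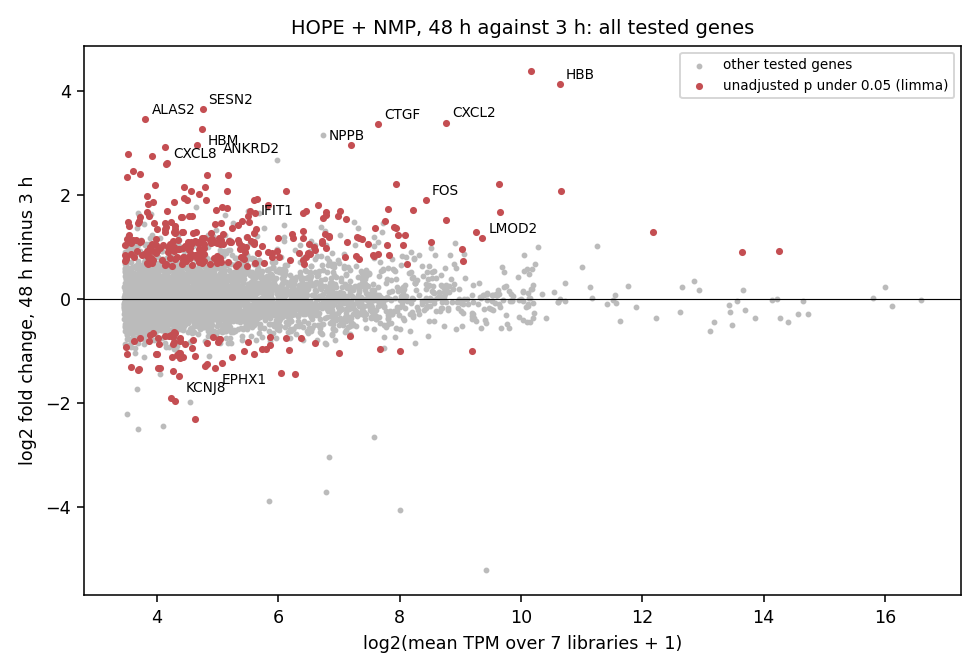
Each point is 1 of 4388 tested genes; the x axis is log2 of the mean TPM over the 7 libraries plus 1, and the y axis is the log2 fold change of 48 h minus 3 h of HOPE before NMP. Red marks an unadjusted limma p under 0.05; above a 2-fold difference there are 244 genes, against 46 below.

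Red cell genes were far higher in both 48 h libraries than in both 3 h libraries. HBB, which encodes the beta chain of adult haemoglobin (chromosome 9, 4800683 to 4801941, Sscrofa11.1 in the RefSeq table), stood at 150.0 and 103 TPM in the 3 h libraries. It stood at 3086 and 1559 TPM in the 48 h libraries. The 48 h libraries were thus far above the 3 h libraries, at a log2 fold change of 4.13 ± 0.60 (SE), with an adjusted p of 0.167 by limma. In the 24 h libraries HBB was as low as at 3 h, at 33.8 and 124 TPM, and the SCS library held 6134 TPM. ALAS2, the erythroid form of the first enzyme of haem synthesis, stood at 1.84 and 1.54 TPM after 3 h and at 38.5 and 20.8 TPM after 48 h (3.45 ± 0.51). HBM, an alpha-like globin gene, stood at 1.31 and 2.30 TPM after 3 h and at 46.6 and 13.8 TPM after 48 h (3.26 ± 0.56). In the SCS library ALAS2 stood at 27.2 TPM and HBM at 113 TPM, so these red cell genes were also high after 24 h of SCS. These 3 are the red cell markers that reached a mean of 10 TPM, of 5 found and 9 listed, and ALAS2 and HBM reached it only through the 48 h and SCS libraries. The 2 others, SLC4A1 and EPB42, which encode proteins of the red cell membrane, stayed under 1 TPM in every library.

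Against 24 h, the red cell genes HBB and ALAS2 passed in the main fit, and HBM did not. In the comparison of 48 h with 24 h, 3 of 4388 genes (0.0684%) were called by limma, all higher after 48 h: HBB (log2 fold change 5.05 ± 0.60, adjusted p = 0.0428), ALAS2 (4.23 ± 0.51, adjusted p = 0.0428) and a gene without a symbol, ENSSSCG00000007978. At an unadjusted p under 0.05, 150 genes (3.42%) differed between 48 h and 24 h, 0.547% higher and 2.87% lower. ENSSSCG00000007978 stood at 137 and 94.5 TPM after 3 h, 47.4 and 108 TPM after 24 h, and 3282 and 1749 TPM after 48 h. Its values ran beside those of HBB in the 6 HOPE libraries, and it had the smallest adjusted p of all genes against 3 h (4.38 ± 0.48, adjusted p = 0.0627). HBM stood 3.24 ± 0.56 above 24 h and was not called, with an adjusted p of 0.208. The calls against 24 h were lost under median-of-ratios scaling and quantile normalization, which left 0 genes, and without any 1 of the 3 h or 48 h libraries, which left 0 as well. They were also lost with a mean of at least 1 TPM, with no filter and without the mitochondrially encoded genes. In the fit of only the 3 h and 48 h libraries, HBB (adjusted p = 0.0042), ALAS2 (0.0325), ENSSSCG00000007978 (0.00395) and 1 other unnamed gene were called against 3 h. Over all alternatives the adjusted p of HBB against 3 h ran from 0.0042 to 0.669. Of 11 neutrophil markers 7 were found, and none reached a mean of 10 TPM. They summed to 2.4 and 3.9 TPM after 3 h and to 5.2 and 6.7 TPM after 48 h. CSF3R and MMP8 were listed at 0 in all 7 libraries, which here can be a failed estimate. The part that blood left in the tissue has in the globin values was not tested.

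**Figure D2:**
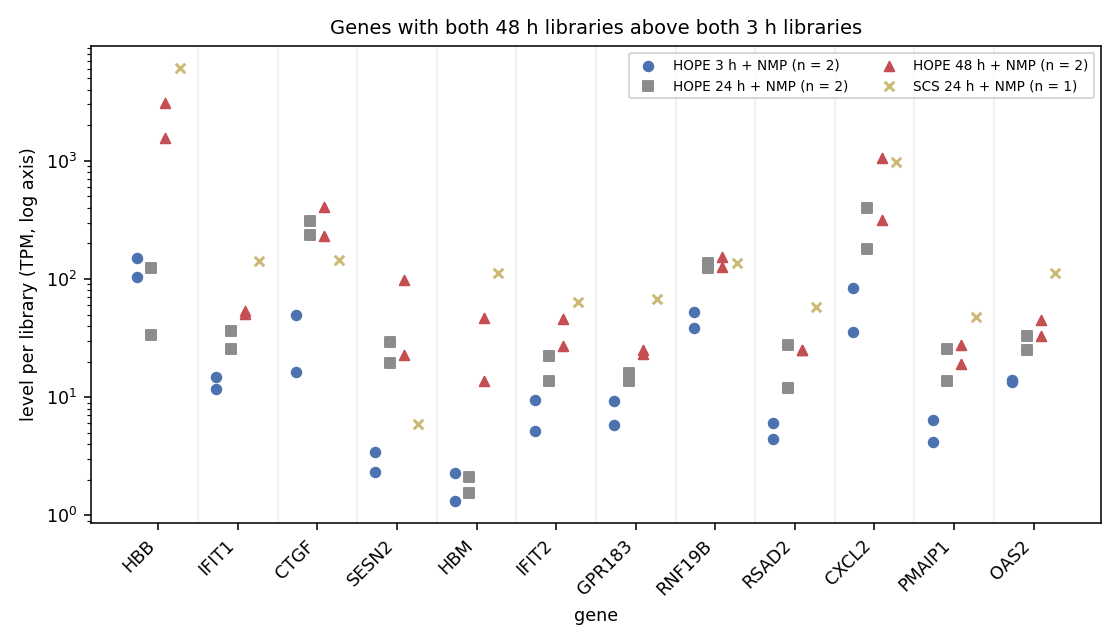
Level of 12 genes in each of 7 libraries on a log axis of TPM; circles are 3 h, squares 24 h and triangles 48 h of HOPE before NMP (2 libraries each), crosses the single SCS library. In every gene both triangles lie above both circles, and in HBB and HBM the squares lie with the circles.

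Interferon-induced genes were higher after 48 h in most members. Of 32 listed genes, 16 were tested, and 15 of these had a positive log2 fold change, with a median of 1.09 against 0.02 over all tested genes. The SCS library was higher still in several, at 142 TPM for IFIT1, 64.3 TPM for IFIT2 and 113 TPM for OAS2. None was called, 11 had an unadjusted p under 0.05, and in 12 the 48 h libraries lay above both 3 h libraries (19.4% of all tested genes). IFIT1, which binds viral RNA, stood at 14.8 and 11.6 TPM after 3 h and at 53.8 and 50.2 TPM after 48 h (1.91 ± 0.30). Its neighbour IFIT2 stood at 5.19 and 9.51 TPM after 3 h and at 45.5 and 27.0 TPM after 48 h (2.16 ± 0.40). Both pairs were clear of each other, with 24 h values between them at 25.4 and 36.2 TPM for IFIT1 and at 22.1 and 13.7 TPM for IFIT2. RSAD2, the antiviral enzyme viperin, stood at 6.00 and 4.47 TPM after 3 h and at 25.0 and 24.8 TPM after 48 h (2.07 ± 0.39). OAS2, a sensor of double-stranded RNA, stood at 13.9 and 13.5 TPM after 3 h and at 32.9 and 44.8 TPM after 48 h (1.42 ± 0.29).

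The members of the list were not uniform. MX1, a GTPase that restricts viruses, stood at 15.0 and 9.17 TPM after 3 h and at 56.8 and 27.1 TPM after 48 h (1.66 ± 0.40). IFIH1, the RNA sensor MDA5, stood at 3.66 and 3.44 TPM against 14.5 and 10.7 TPM (1.57 ± 0.32). GBP2, a guanylate-binding protein, stood at 15.5 and 13.3 TPM against 16.0 and 12.3 TPM, so its groups overlapped (-0.03 ± 0.27). IFI35 overlapped as well, at 0.11 ± 0.30. Outside the list, MAVS, the adaptor on mitochondria through which RNA sensors signal and one of the named lower genes, stood at 85.1 and 92.3 TPM after 3 h and 41.3 and 48.2 TPM after 48 h (-0.97 ± 0.27, adjusted p = 0.375 by limma). Another 10 listed genes were found under 10 TPM. Of these IRF7 and HERC6 were among those listed at 0 in all 7 libraries, as were genes that every cell uses, such as SDHA, so a 0 in this table can be a failed estimate. Among the other low members, STAT2 overlapped at 6.42 and 5.41 TPM after 3 h against 8.65 and 4.71 TPM after 48 h. ISG20 overlapped at 3.03 and 0.35 TPM against 2.00 and 2.53 TPM. In DHX58, HERC5 and GBP1 both 48 h libraries lay above both 3 h libraries.

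Chemokines and genes under NF-kappaB formed a further group of high values. Of 29 listed cytokine and chemokine genes 20 were found and 5 tested, and these 5 had both 48 h libraries above both 3 h libraries, as 19.4% of all tested genes did. Among the found genes under 10 TPM the groups overlapped in several, such as CCL3L1 at 2.78 and 1.69 TPM against 20.5 and 2.59 TPM, and CCL19 at 6.81 and 4.58 TPM against 9.96 and 3.90 TPM. CXCL2, which draws neutrophils, stood at 83.2 and 35.5 TPM after 3 h and at 1050.2 and 314 TPM after 48 h (3.38 ± 0.66, adjusted p = 0.177 by limma). CXCL8, the chemokine IL-8, stood at 5.33 and 2.54 TPM against 51.8 and 14.8 TPM (2.61 ± 0.61). CCL2, which draws monocytes, was the most abundant of them, at 961 and 277 TPM after 3 h and 2482 and 1919 TPM after 48 h (2.08 ± 0.54). The first 48 h library was the higher one in all 3 genes, and for CXCL2 and CXCL8 it was over 3-fold above the second. The SCS library held 974 TPM of CXCL2. Messages for IL6, IL1B and TNF stayed under 3 TPM in the 3 h and 48 h libraries.

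Of 22 listed genes for NF-kappaB feedback and adhesion, 16 were tested, with a median log2 fold change of 0.88. The groups did not overlap in 11, all higher after 48 h (19.4% of all tested genes), and none was called. PTGS2, the inducible cyclooxygenase, stood at 14.3 and 6.64 TPM after 3 h and at 81.2 and 38.1 TPM after 48 h (2.39 ± 0.51). TNFAIP3, the NF-kappaB inhibitor A20, stood at 7.93 and 4.86 TPM against 49.1 and 16.2 TPM (2.02 ± 0.56). SELP, the P-selectin that lets white cells roll on endothelium, had closer replicates, at 4.67 and 4.01 TPM after 3 h and 22.7 and 17.6 TPM after 48 h (1.98 ± 0.33). For the adhesion molecules ICAM1 and VCAM1 the log2 fold changes were 0.97 ± 0.35 and 0.64 ± 0.33. Their 24 h libraries stood highest among the HOPE libraries, at up to 29.7 TPM for ICAM1 and up to 176 TPM for VCAM1. GPR183, a receptor that guides immune cells by oxysterols, stood at 9.19 and 5.78 TPM after 3 h and at 25.2 and 23.3 TPM after 48 h (1.60 ± 0.30). RNF19B, a ubiquitin ligase, stood at 52.3 and 38.7 TPM against 155 and 126 TPM (1.61 ± 0.30).

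**Figure D3:**
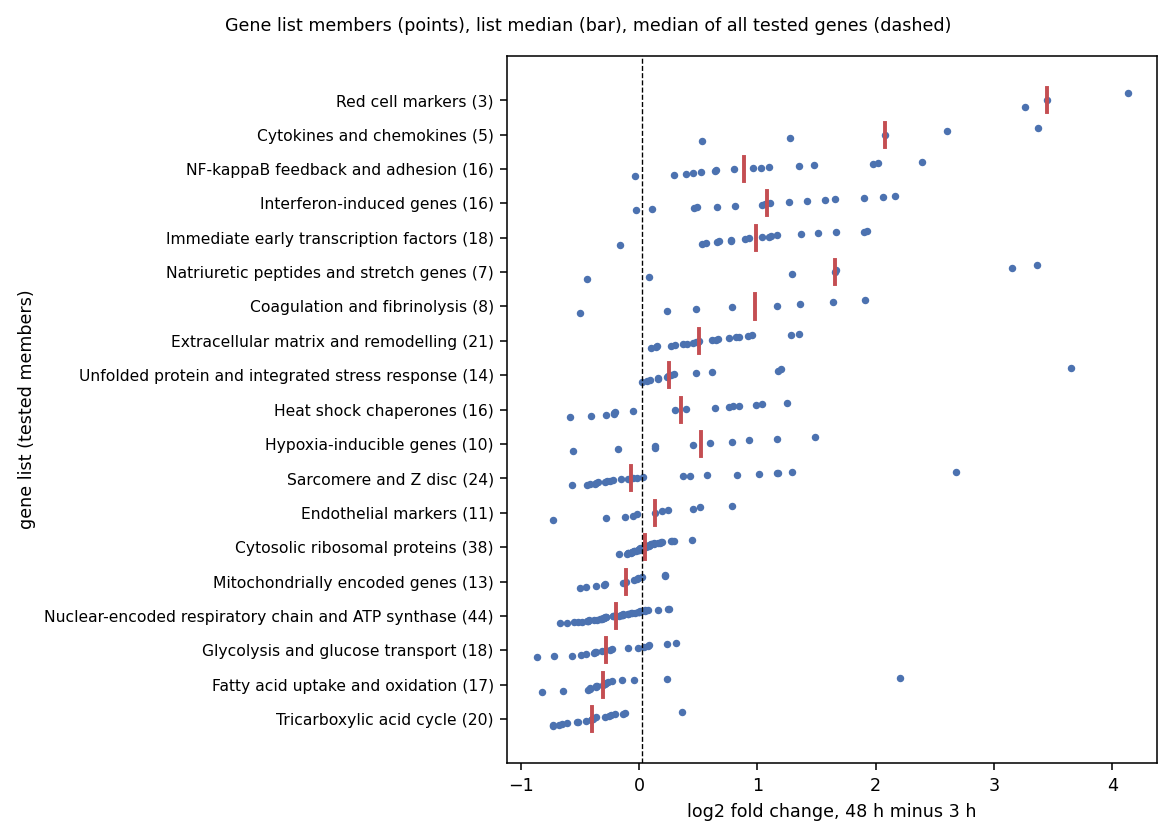
Log2 fold change of 48 h minus 3 h (x axis) for the tested members of 19 gene lists (y axis, number tested in brackets); points are genes, red bars list medians and the dashed line the median of all tested genes, 0.02. Red cell, cytokine and natriuretic or stretch genes have the highest medians, and the tricarboxylic acid cycle the lowest, -0.39.

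Immediate early genes, which are transcribed soon after a stimulus, were highest in the first of the 48 h libraries. Of 27 listed, 18 were tested and 17 had a positive log2 fold change, with a median of 0.99. FOS, a subunit of the transcription factor AP-1, stood at 55.6 and 57.7 TPM after 3 h and at 586 and 77.7 TPM after 48 h (1.90 ± 0.79), with 1450.3 TPM in the SCS library. EGR1, a zinc finger factor, stood at 274 and 158 TPM against 627 and 318 TPM (1.09 ± 0.43). ATF3, a stress-induced repressor, stood at 85.0 and 123 TPM against 427 and 165 TPM (1.37 ± 0.49). In each of the 3 the first 48 h library was the higher one and the second lay close to the 3 h range. Without that first library the median of the list was 0.48, and without the second it was 1.54. FOSL1, another AP-1 member, was different, with 48 h values of 79.8 and 62.1 TPM close together and 3 h values of 33.7 and 9.20 TPM apart (1.92 ± 0.52).

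Among stress genes outside this class, SESN2 stood furthest from its 3 h level. SESN2, sestrin 2, which restrains mTORC1 under amino acid shortage and oxidative stress, stood at 3.44 and 2.34 TPM after 3 h. It stood at 29.4 and 19.4 TPM after 24 h and at 98.2 and 22.6 TPM after 48 h, 3.65 ± 0.60 above 3 h on the log2 scale (adjusted p = 0.177 by limma). In the SCS library it was at 5.93 TPM. SESN2 belongs to the list of unfolded protein and integrated stress response genes, whose 14 tested members of 25 had a lower median of 0.26. All 14 had positive values, 5 lay above without overlap (19.4% of all tested genes) and 3 had an unadjusted p under 0.05. Without the second 3 h library the median was 0.0066, and without the first it was 0.61. PPP1R15A, a phosphatase subunit that ends the integrated stress response, stood at 68.2 and 68.9 TPM against 241 and 104 TPM (1.20 ± 0.43). DNAJB9, a chaperone of the endoplasmic reticulum, stood at 17.0 and 13.6 TPM against 29.9 and 42.2 TPM (1.18 ± 0.30). HSPA5, the main chaperone of that compartment, had a smaller value, at 0.48 ± 0.33. PMAIP1, which encodes the pro-apoptotic protein NOXA, stood at 6.42 and 4.19 TPM after 3 h and at 27.6 and 19.0 TPM after 48 h (1.95 ± 0.38).

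Heat shock chaperones were split. Of 22 listed, 16 were tested, with a median of 0.35; 6 lay above the 3 h libraries without overlap and 3 below, against 19.4% and 13.1% of all tested genes. The median was 0.10 without the second 3 h library and 0.59 without the first. The HSP70 genes HSPA1A and HSPA1L were listed at 0 in all 7 libraries, which here can be a failed estimate. HSPH1, a nucleotide exchange factor of the HSP70 system, stood at 15.2 and 9.64 TPM against 37.0 and 24.7 TPM (1.25 ± 0.33). DNAJA1, a cochaperone of HSP70, stood at 115 and 101 TPM against 256 and 194 TPM (1.04 ± 0.30). The mitochondrial chaperones HSPD1 and HSPE1 overlapped between the storage times, at -0.21 ± 0.36 and -0.20 ± 0.33. Of the 4 listed cold-inducible RNA-binding proteins 2 were tested. CIRBP stood at 181 and 145 TPM against 110.0 and 132 TPM (-0.42 ± 0.29), and RBM3 overlapped (-0.01 ± 0.32).

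Among genes that answer to stretch of heart muscle, 3 of 7 tested lay above the 3 h libraries without overlap. The share over all tested genes was 19.4%. None of the 7 was called, and the second 3 h library was low in several of them. CTGF, also called CCN2, a matrix protein induced by stretch and TGF-beta, stood at 49.6 and 16.4 TPM after 3 h and at 229.8 and 405 TPM after 48 h (3.37 ± 0.52, adjusted p = 0.167 by limma). The 24 h libraries were already at 236 and 312 TPM. ANKRD1, a stretch-induced ankyrin repeat protein of the sarcomere, stood at 4827 and 1564 TPM after 3 h and at 5810.1 and 7838 TPM after 48 h (1.30 ± 0.48). LMOD2, which lengthens thin filaments, had closer replicates, at 463 and 424 TPM against 1028 and 973 TPM (1.17 ± 0.29). The natriuretic peptide genes did not separate the storage times. NPPB stood at 128 and 1.06 TPM after 3 h and at 65.7 and 315 TPM after 48 h (3.16 ± 1.61). NPPA stood at 134 and 1.92 TPM against 30.3 and 125 TPM (1.66 ± 1.48), and without the second 3 h library its value was -1.11. The median of the 7 tested of 11 genes in this list was 1.66, and it was 0.17 without the second 3 h library.

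Extracellular matrix genes were higher by a smaller amount. All 21 tested of 33 listed genes had a positive log2 fold change, with a median of 0.51, and in 10 the 48 h libraries lay above without overlap (19.4% of all tested genes). The median was 0.29 without the second 3 h library and 0.89 without the first. Collagen gene COL3A1 stood at 248 and 250.3 TPM after 3 h and at 458 and 511 TPM after 48 h (0.95 ± 0.29). POSTN, periostin, a matrix protein of activated fibroblasts, stood at 6.06 and 8.83 TPM against 16.2 and 25.2 TPM (1.35 ± 0.36). THBS1, thrombospondin 1, stood at 429 and 169 TPM against 752 and 575 TPM (1.28 ± 0.45). The fibroblast markers, some of which are matrix genes too, had a median of 0.66 over 5 tested genes. Their summed level was 642 and 570 TPM after 3 h and 981 and 1016 TPM after 48 h, and its part in the matrix values was not tested.

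Vascular genes differed among themselves. Endothelial markers had a median of 0.14 over 11 tested genes of 15, and a median of -0.23 without the second 3 h library. In 1 of the 11 both 48 h libraries lay above both 3 h libraries, against 19.4% of all tested genes. Coagulation and fibrinolysis genes had a median of 0.98 over 8 tested genes of 18, and 7 of the 8 had a positive value. Their median was 0.28 without the second 3 h library and 1.61 without the first. Groups lay apart with 48 h higher for 3 of the 8 and lower for 0, and none was called. F3, the tissue factor that starts coagulation, stood at 21.9 and 2.68 TPM after 3 h and at 31.8 and 35.3 TPM after 48 h (1.91 ± 0.75). TFPI2, also on this list, was higher after 48 h without overlap (1.64 ± 0.59). THBD, thrombomodulin, which restrains coagulation on endothelium, overlapped at 187 and 51.4 TPM against 72.3 and 66.1 TPM (-0.50 ± 0.54). KCNJ8, the pore of the ATP-sensitive potassium channel of pericytes and smooth muscle, was among the lowest genes. It stood at 39.1 and 30.2 TPM after 3 h, 15.3 and 21.4 TPM after 24 h and 10.4 and 12.99 TPM after 48 h (-1.49 ± 0.30, adjusted p = 0.188 by limma). The other tested pericyte and smooth muscle markers ranged from -0.53 (PDGFRB) to 0.62 (CNN1).

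Genes of energy metabolism lay slightly below their 3 h levels on balance. The median was -0.39 for the tricarboxylic acid cycle over 20 tested genes of 24, and 1 of these had a positive value. Fatty acid genes had a median of -0.30 (17 of 32 tested), glycolytic genes -0.28 (18 of 28), and nuclear genes for respiratory chain complexes and the ATP synthase -0.19 (44 of 77, with 9 positive). No gene of these lists was called. Groups lay apart with 48 h lower for 3 genes of the tricarboxylic acid cycle, 2 fatty acid genes, 5 glycolytic genes and 5 respiratory chain genes, against 13.1% of all tested genes. Of these ACADS had an unadjusted p under 0.05. PFKM, the muscle phosphofructokinase, stood at 178 and 185 TPM after 3 h and at 66.7 and 148 TPM after 48 h (-0.86 ± 0.39). The first 48 h library was the lower one. Without that library the medians were 0.03 for the tricarboxylic acid cycle and 0.17 for the respiratory chain. ANGPTL4, a lipoprotein lipase inhibitor on the fatty acid list, lay the other way, at 262 and 25.4 TPM against 387 and 381 TPM (2.21 ± 0.89).

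Genes of the contractile apparatus lay on both sides of their 3 h level. The 24 tested of 32 sarcomere and Z disc genes had a median of -0.07, which ran from -0.28 without the second 48 h library to 0.16 without the first. The 48 h libraries lay apart higher for 4 of them and lower for 3, against 19.4% and 13.1% of all tested genes. Values reached 2.68 ± 1.27 for ANKRD2, a stretch-responsive Z disc protein. Its groups overlapped, at 78.5 and 1.86 TPM against 61.9 and 147 TPM, and without the second 3 h library its value was 0.28. TNNT2, cardiac troponin T, overlapped at 20403 and 17786 TPM against 12074 and 17883 TPM (-0.37 ± 0.27), and TNNI3, cardiac troponin I, at -0.22 ± 0.21. MYBPC3, cardiac myosin-binding protein C, did not overlap, at 1449 and 1024 TPM against 714 and 951 TPM (-0.56 ± 0.31). Of 30 listed genes for calcium cycling and ion channels, 13 were tested, with a median of 0.00. Cytosolic ribosomal proteins had a median of 0.05 over 38 tested of 77, and proteasome subunits -0.09 over 20 of 31.

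The 12 genes named on the lower side, chosen by p among those with a symbol and a mean of at least 20 TPM, had log2 fold changes of -2.31 to -0.76, and none was called. EPHX1, the microsomal epoxide hydrolase that detoxifies epoxides, had the smallest p of them. It stood at 59.2 and 48.2 TPM after 3 h and at 17.8 and 23.7 TPM after 48 h, with 25.1 and 30.9 TPM after 24 h (-1.33 ± 0.29, adjusted p = 0.233 by limma). ALAS1, the housekeeping form of the haem synthesis enzyme, stood at 79.0 and 93.8 TPM against 40.8 and 51.8 TPM (-0.89 ± 0.29), the opposite side to its erythroid counterpart ALAS2. The RefSeq annotation of Sscrofa11.1 gives the ALAS1 entry as a transcribed pseudogene. MRPL16, a protein of the mitochondrial ribosome, stood at 32.6 and 44.0 TPM against 14.7 and 20.1 TPM (-1.09 ± 0.29). MIGA2, which promotes mitochondrial fusion, had a value of -0.78 ± 0.26. COQ8A, needed for coenzyme Q synthesis, had -0.76 ± 0.27, and ACADS, the short-chain acyl-CoA dehydrogenase, had -0.82 ± 0.32.

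ADCY6, a main adenylyl cyclase of the cardiomyocyte, stood at 146 and 136 TPM after 3 h and at 75.8 and 80.9 TPM after 48 h (-0.84 ± 0.30). SPTAN1, the alpha spectrin of the membrane skeleton, stood at 69.9 and 76.8 TPM against 40.2 and 34.0 TPM (-0.97 ± 0.28). HYAL2, a hyaluronidase, had 48 h values of 23.2 and 9.84 TPM below 39.3 and 35.6 TPM (-1.24 ± 0.38). The remaining named entries were short RNAs, ssc-mir-339-1 (-2.31 ± 0.69) and RF00211 (-1.29 ± 0.50), which libraries made from polyadenylated RNA capture poorly.

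**Figure D4:**
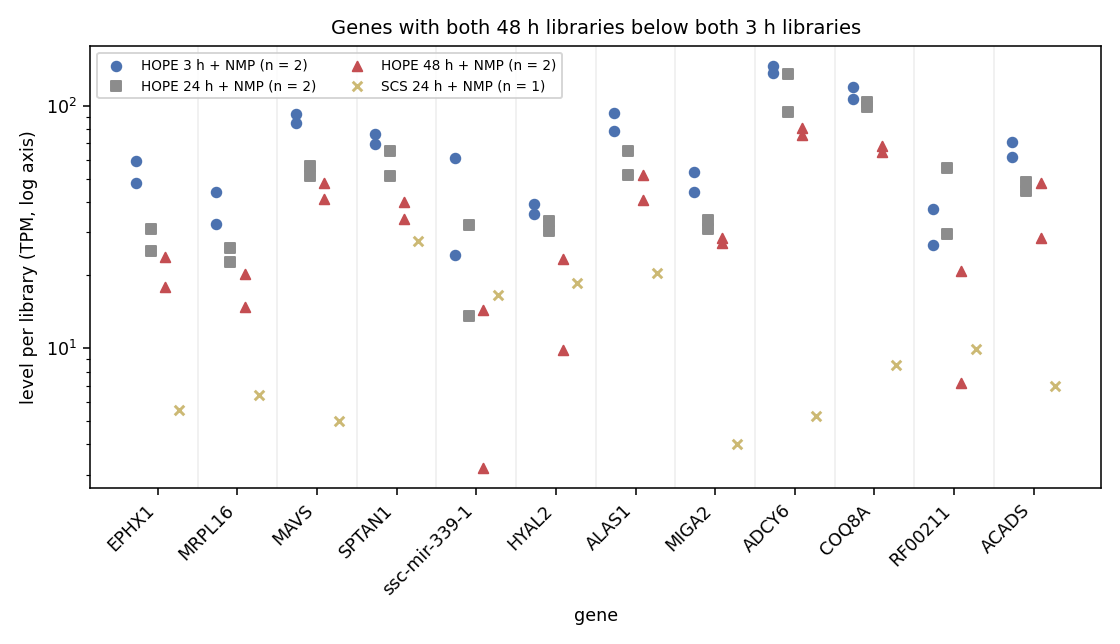
Level of the 12 named lower genes in each of 7 libraries on a log axis of TPM; circles are 3 h, squares 24 h and triangles 48 h of HOPE before NMP (2 libraries each), crosses the single SCS library. In every gene both triangles lie below both circles.

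The libraries after 24 h of HOPE show where a value seen at 48 h stood at the shorter time. Both comparisons use the same 3 h libraries, so their values are only set side by side. In the comparison of 24 h with 3 h the median log2 fold change over all tested genes was 0.22. No gene was called there by limma (0%). At an unadjusted limma p under 0.05 there were 663 genes (15.1%), 627 of them higher (14.3%) and 36 lower (0.82%). Without the first 3 h library 39 genes were called there. For CTGF the log2 fold change was 3.20 ± 0.52 at 24 h and 3.37 ± 0.52 at 48 h, and for RNF19B 1.51 ± 0.30 and 1.61 ± 0.30. SELP stood 1.83 ± 0.33 above 3 h at 24 h and 1.98 ± 0.33 at 48 h. For IFIT1 the values were 1.15 ± 0.30 and 1.91 ± 0.30, and for CXCL2 2.28 ± 0.66 and 3.38 ± 0.66. EPHX1 had -0.91 ± 0.29 at 24 h and -1.33 ± 0.29 at 48 h. HBB had -0.92 ± 0.60 at 24 h against 4.13 ± 0.60 at 48 h. Several list medians over tested members were as high at 24 h as at 48 h, or higher. They were 1.09 and 1.09 for interferon-induced genes, 1.10 and 0.88 for NF-kappaB genes and 0.85 and 0.51 for matrix genes. Other medians were higher at 48 h, such as 1.44 and 2.08 for cytokines and 0.69 and 0.99 for immediate early genes. Of the direct differences between 48 h and 24 h, those of HBB, ALAS2 and ENSSSCG00000007978 passed, and that of CTGF was 0.17 ± 0.52. As deposited, the median log2 fold change of 48 h minus 24 h over all genes was -0.19. Median-of-ratios scaling levels such medians by design. It brought this one to 0.00 and that of 24 h minus 3 h to -0.0056. Under that scaling 607 of 4388 genes had an unadjusted limma p under 0.05 between 24 h and 3 h.

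Hearts sampled during HOPE without NMP give the change over storage alone. They were measured in another experiment with another library kit, as normalised counts, and were not tested against the NMP libraries. Between 48 h and 0 h of HOPE no gene of 14141 passed in limma (0%), and 197 (1.39%) had an unadjusted p under 0.05. The same pigs were sampled at both times, and with the pig as a block 1 gene was called, the chemokine receptor gene CX3CR1 (-1.54 ± 0.22, adjusted p = 0.0187 by limma), with 1068 genes at an unadjusted p under 0.05. DESeq2 on recovered reads called 2 genes and edgeR 0. HBB was at 7.63, 14.7 and 35.6 normalised counts at 0 h in pigs 2, 4 and 6, and at 130.1, 135 and 611 at 48 h. It was thus higher in 3 of 3 pigs, by 3.93, 3.12 and 4.06 on the log2 scale, with an adjusted p of 0.839 by limma and of 0.0749 to 1 under the alternatives. ALAS2 was higher in 3 of 3 pigs as well, by 2.30, 1.36 and 3.92, and ENSSSCG00000007978 by 3.85, 1.41 and 4.02. HBM did not share this, at 1.30, -1.51 and 0.70, from counts of at most 13.8.

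The interferon-induced genes IFIT1, IFIT2 and RSAD2 stood otherwise during storage, where limma called no gene. Other members of their list are not described for storage without NMP. IFIT1 was lower at 48 h in 3 of 3 pigs, by -0.24, -0.62 and -0.66, and IFIT2 by -0.50, -0.82 and -0.96. RSAD2 differed by -0.12, -0.41 and -0.96. For CTGF the 3 pigs gave -0.40, 0.12 and -0.15, and for SESN2 -0.38, 0.59 and -0.03. CXCL2 gave 0.08, 1.31 and -0.06. EPHX1, lower after NMP, was higher at 48 h in 3 of 3 pigs without it, by 0.23, 0.28 and 1.94. No test links the 2 experiments, and the 0 h biopsy is not the same starting point as 3 h of HOPE with NMP.

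**Figure D5:**
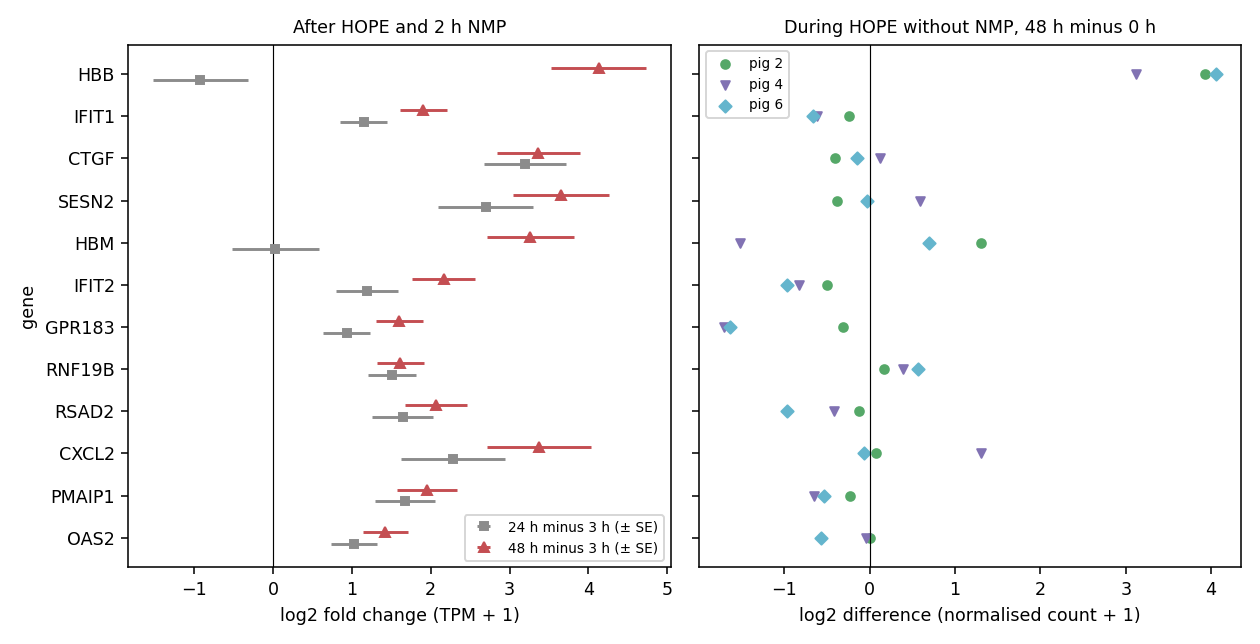
Left, log2 fold change (± SE, x axis) of 24 h and 48 h against 3 h of HOPE, each followed by 2 h of NMP, for 12 genes (y axis); right, log2 difference of 48 h minus 0 h of HOPE without NMP in each of 3 pigs. HBB is high at 48 h in both panels, and the IFIT1 and IFIT2 points lie below 0 in the right panel.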

How the data were processed

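RNA from pig myocardial biopsies was sequenced in 2 experiments, and this text uses the 7 libraries made after NMP, with 6 of the 24 made without NMP as context. The deposited NMP table holds TPM, since each column sums to the same total of 1000000. Read depth is therefore unknown there, and no count test was possible. The other table holds a signal, normalised counts each scaled by the authors with one size factor for a whole library, per the file headers. In all 24 columns 100% of the values came out as whole reads (tolerance 0.01), with 19722065 to 35099406 reads per library, and edgeR on these reads called 0 genes between 48 h and 0 h of HOPE. The submitters' processing notes name Trimmomatic 0.36, STAR 2.5.2b, HISAT2 2.2.1, Subread 1.5.2, featureCounts 2.0.6, DESeq2 and Sscrofa11.1 and give no role for each; use of strand in counting is not stated there. A further 11 columns of NMP values had no matching sample and were left unused.

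The main fit was limma 3.58.1 in R 4.3.3, with lmFit, contrasts and eBayes (variance trend on), applied to log2(TPM + 1), a scale that understates changes of low genes. It held all 7 libraries with 1 coefficient per group, which left 3 residual degrees of freedom; the lone SCS library adds none. P-values were adjusted over all 4388 genes with a threshold of 0.05. The fit for storage without NMP was the same on log2(normalised count + 1) over 24 libraries, with edgeR 4.0.16 and DESeq2 1.42.0 on the recovered reads as alternatives. The method was tested on simulated data.

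Named genes were the 12 with the smallest unadjusted p in each direction, since none was called, with a symbol, a mean of at least 20 TPM and groups that did not overlap. For each list, called members or else the 2 tested members with the largest absolute log2 fold change were added. Not all of these are described: PFKFB3, PRKAG2 and GADD45B are among those left out. Other genes described, such as SELP, LMOD2, MX1, GBP2 and THBD, were chosen after their values were seen. The lists hold 894 gene entries, of which 633 were found and 445 tested. The members and lists were chosen with earlier results of these data known. One gene ID matched both MYH6 and MYH7, so neither is described. Symbols came from the deposited tables and a reference table; positions came from the RefSeq table of Sscrofa11.1. The alternatives were other pseudocounts, filters, scalings, variance models, samples and a replicate block.

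The libraries of a group share replicate numbers with other groups. Deviations from the group means of equal numbers correlated at 0.162 between 3 h and 48 h, 0.09 between 3 h and 24 h and 0.384 between 24 h and 48 h. With 2 libraries per group these values cannot show whether numbers pair, and the labels do not say so.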

Additional observations from a re-analysis of the deposited data

How the results depend on the processing

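Between 48 h and 3 h, where 0 genes were called, a pseudocount of 5 gave 1, a mean of at least 50 TPM 1, no variance trend 2, and the 4 compared libraries alone 4. Leaving out 1 library gave 0 to 6. Between 24 h and 3 h (0 called) this range was 0 to 39. Between 48 h and 24 h (3 called) it was 0 to 5; a pseudocount of 0.1 gave 1, robust variances 1, and leaving out the SCS library, an alternative added after seeing the data, 1. There, a mean of at least 1 TPM, no filter, leaving out mitochondrial genes, median-of-ratios scaling and quantile normalization each gave 0. With the replicate number as a block, 29 genes were called between 48 h and 3 h, 28 between 24 h and 3 h and 3 between 48 h and 24 h. Since pairing is unknown, these are no stronger evidence. Without NMP (0 called), the pig as a replicate block gave 1 call, DESeq2 2, and leaving out a pig 0. The cause of these differences was not tested.

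Of 1766 alternative values for 95 genes, 1721 kept direction and call, 31 passed the threshold and 14 changed sign, all of these on leaving out 1 library. The ranges on leaving out 1 library were CLU -1.26 to 0.70, RBM3 -0.32 to 0.30, KRT8 -2.76 to 2.03, MT1F -0.079 to 1.69, NPPA -1.11 to 4.43, CNN1 -0.73 to 1.98, C1QA -0.34 to 0.49, SDHC -1.40 to 0.19, SERPING1 -0.10 to 0.57, NFIL3 -0.24 to 1.47 and PER1 -1.28 to 0.14. Of 774 values for 41 list medians, 46 moved by more than the replicate spread. On leaving out 1 library the medians of fatty acid (-0.69 to 0.0045), endothelial (-0.23 to 0.55), sarcomere (-0.28 to 0.16), proteasome (-0.36 to 0.18) and ribosomal genes (-0.076 to 0.20) were among those that crossed 0. Scaling by spike-in RNA was not run, since no spike-in rows were used here. The NMP table gives no read depth, so counting error of low genes is unknown.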

Other observations

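The second 48 h library listed 9 tested genes at 0 that were above 0 in the 6 other libraries, and 7 of these had no symbol. ENSSSCG00000018072 stood at 1099 and 575 TPM after 3 h, at 852 and 7.50 TPM after 24 h and at 454 and 0 TPM after 48 h. ENSSSCG00000018073 stood at 323 and 296 TPM after 3 h, at 213 and 5.11 TPM after 24 h and at 347 and 0 TPM after 48 h. In both genes the second library of the 24 h and of the 48 h group was the low one.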
